A study of Mus musculus with 12 samples.

Results

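Nr3c1, which encodes the glucocorticoid receptor, and 8 genes that the receptor is known to induce were followed in whole bone marrow of mice after a flame burn. The 9 genes are Nr3c1, Fkbp5, Tsc22d3, Per1, Dusp1, Ddit4, Sgk1, Zbtb16 and Klf9. They were taken by symbol, each matched 1 row of the deposited table of 24415 genes, and all 9 passed the filter on low counts.

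RNA was sequenced from 12 libraries of marrow from female C57BL/6J mice, 8 weeks old. The 4 sham libraries (replicates 1 to 4) came from mice given sham injury and an isotype control antibody, the 4 burn libraries (replicates 5 to 8) from mice given a flame burn and the isotype antibody, and the 4 antibody libraries (replicates 9 to 12) from mice given a flame burn and an antibody that blocks G-CSF, the growth factor of the neutrophil lineage. The antibody was given 12 hours before injury, at injury and daily until marrow was taken on day 7. Whether 1 library stands for 1 mouse is not said in the labels, so the p-values below cover the spread among libraries, part of which may be technical. An antibody group without burn was not analysed here, so every antibody library also carries the burn.

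The receptor rests in the cytoplasm in a complex with heat shock protein 90 and its co-chaperones. Corticosterone, the main glucocorticoid of mice, is released from the adrenal gland under stress and in a daily rhythm, and sends the receptor into the nucleus, where it binds DNA at glucocorticoid response elements. In marrow the hormone is known for depleting lymphoid precursors, for prolonging the life of neutrophils and for sustaining stress erythropoiesis.

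The response element holds 2 inverted copies of AGAACA around 3 bases, and it was searched for in the 250 bases before each listed transcript start of the RefSeq promoter table (build GRCm38.p6), on both strands. Of the 9 genes 7 were matched in that table and used. Sgk1 had 6 windows, Tsc22d3 3 and Per1 2, while Dusp1, Fkbp5, Klf9 and Ddit4 had 1 each. The full element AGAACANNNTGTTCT stood in 3 of 32851 windows, 0.00913% of all, and 1 of these was the window of Sgk1 at the start that the deposited table gives for the gene. The looser form GNACANNNTGTNC, which overlaps it, stood in 0.387% of windows and, among the members, at the same Sgk1 site alone. The clock E-box CACGTG, found in 6.02% of windows, was in 1 window each of Per1, Dusp1, Fkbp5 and Sgk1. The cAMP response element TGACGTCA, found in 1.55% of windows, was in that of Dusp1. A single AGAACA, which 16.1% of windows held, also stood before an upstream start of Tsc22d3 and before upstream starts of Sgk1. The windows of Tsc22d3, Klf9 and Ddit4 held none of the other 4 motifs, which says only that the letters are not in those 250 bases. A match is a run of letters and was not tested as a binding site, and the single AGAACA overlaps the full element wherever that stands. Sgk1 is shown because it holds the full element, and Per1 and Dusp1 because they belong to the genes that varied most between libraries. The windows lie at chr10:21993640-21993889 (plus strand), chr11:69098699-69098948 (plus strand) and chr17:26508473-26508722 (minus strand). Capitals mark the full response element in Sgk1, the E-box in Per1, and the cAMP response element followed by the E-box in Dusp1.
Sgk1: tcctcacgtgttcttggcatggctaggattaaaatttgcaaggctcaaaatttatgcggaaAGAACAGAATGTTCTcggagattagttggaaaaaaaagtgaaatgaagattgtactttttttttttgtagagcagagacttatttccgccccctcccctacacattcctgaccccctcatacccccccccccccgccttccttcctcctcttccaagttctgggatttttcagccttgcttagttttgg
Per1: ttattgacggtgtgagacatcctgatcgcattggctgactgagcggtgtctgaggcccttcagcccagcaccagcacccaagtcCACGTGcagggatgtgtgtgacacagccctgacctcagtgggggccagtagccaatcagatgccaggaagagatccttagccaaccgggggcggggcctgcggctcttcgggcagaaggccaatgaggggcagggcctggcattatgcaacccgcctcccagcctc
Dusp1: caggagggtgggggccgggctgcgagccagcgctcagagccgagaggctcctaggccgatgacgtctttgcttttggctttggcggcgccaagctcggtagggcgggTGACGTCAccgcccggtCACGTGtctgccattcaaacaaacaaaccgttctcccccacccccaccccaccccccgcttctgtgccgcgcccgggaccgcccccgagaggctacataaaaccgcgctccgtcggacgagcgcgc

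Levels are given as CPM, gene counts scaled to a common library size with a TMM factor, and differences as log2 fold changes with their SE from an edgeR quasi-likelihood fit to all 12 libraries. A gene was called when its p, adjusted by Benjamini-Hochberg over 15283 genes, was under 0.05. Total gene counts ran from 18780399 to 25708084 per library, and every member had at least 128 counts in every library. Per kilobase of exon, Tsc22d3 had the highest level of the members in sham, at 54.3 ± 19.0 CPM per kb (SD, n = 4), followed by Nr3c1 at 26.6 ± 1.24. Ddit4, at 20.3 ± 11.1 CPM per kb, Dusp1, at 19.4 ± 5.31, Sgk1, at 14.9 ± 0.526, Fkbp5, at 13.0 ± 2.91, and Per1, at 8.81 ± 5.46, came next, and neighbours in this order, from Nr3c1 to Klf9, differed by less than the larger of their SDs. Klf9, at 3.90 ± 1.07 CPM per kb, and Zbtb16, at 1.74 ± 0.543, were the lowest in each of the 3 groups. Tsc22d3 was also highest after burn, at 52.3 ± 9.89 CPM per kb, and with the antibody, at 41.6 ± 17.0, and Nr3c1 second, at 29.5 ± 2.08 and 24.0 ± 2.01. The deposited span of Tsc22d3 covers the short form of the gene alone.

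The summed level of 18 brain genes, among them Camk2a and Snap25 of neurons, was 892 ± 43.1 CPM in sham, 1089.5 ± 233 after burn and 1555 ± 438 with the antibody (SD, n = 4). It was 1693 CPM in replicate 9 and 2113 in replicate 12, against 833 to 936 in sham. The ratio of the antibody group to sham was 1.74 (2-sided exact permutation test, p = 0.0286, the smallest that 4 against 4 allow, adjusted p = 0.0857 over 3 comparisons). Against burn the ratio was 1.43 (exact permutation p = 0.143, adjusted p = 0.171), and burn against sham gave 1.22 (exact permutation p = 0.171, adjusted p = 0.171). Brain and heart transcripts at differing levels had been seen in these libraries before, so these p-values are no independent test of that difference. All 18 brain genes were tested, and 12 passed as higher with the antibody than after burn, as did 7 of 8 heart genes and 17.7% of all tested genes. Replicates 9 and 12 held the highest brain levels of the 12 libraries. Markers of marrow cells were abundant in every library, with 8604 to 9322 CPM over 8 red cell precursor genes and 1306 to 1485 over 8 B lineage genes in sham.

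Few of the 9 genes differed between groups beyond the spread of the libraries. None of the 9 genes passed the threshold between burn and sham, where 21% of all tested genes did, 11.1% higher and 9.92% lower. Between the antibody group and burn 2 of 9 passed, Nr3c1 and Sgk1, both lower with the antibody, where 34.6% of all tested genes passed, 17.7% higher and 16.9% lower. Between the antibody group and sham none of 9 passed, where 11% of all tested genes did, 7.09% higher and 3.91% lower. The median log2 fold change of the 9 was -0.05, -0.30 and -0.18 in these 3 comparisons, against -0.00026, 0.083 and -0.0046 over all tested genes. At an unadjusted p under 0.05 edgeR gave 0 of 9 for burn against sham and 3 of 9 for the antibody group against sham (Dusp1, Sgk1 and Klf9). DESeq2 and limma-voom, with and without sample weights, each called 0 in both of these comparisons. The share of all tested genes at an unadjusted p under 0.05 was not worked out, so those edgeR counts have no background beside them. With library size as the only scaling 31.0%, 77.5% and 77.5% of all calls were on the higher side in the 3 comparisons (the splits above used TMM factors). The comparisons share libraries, so their values are not independent of each other. The shares of all tested genes at the adjusted p are also the background for the counts of called genes in every list.

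**Figure D1:**
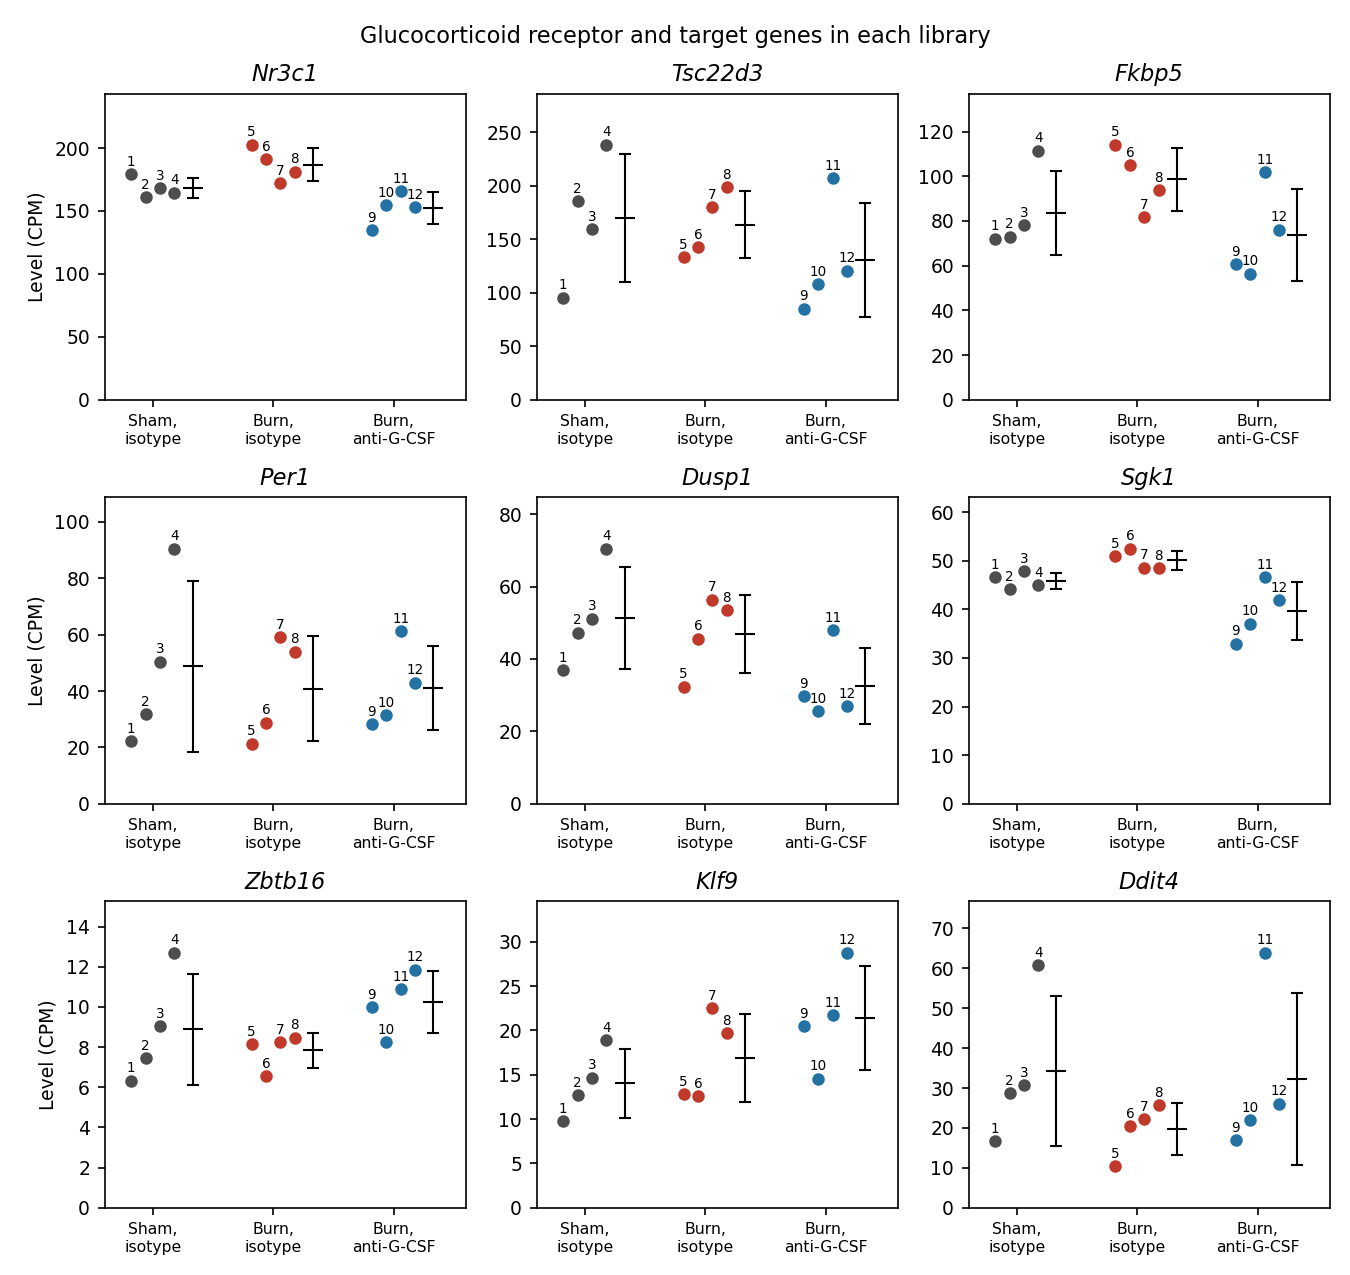
CPM (y axis, from 0) of each of the 9 genes in each of the 12 libraries, as points numbered by replicate, with the mean and SD of each group (n = 4) as a bar beside them. Nr3c1 and Sgk1 hold close together within groups, while Per1, Ddit4, Tsc22d3 and Dusp1 spread widely and are highest in replicate 4 of sham and replicate 11 of the antibody group.

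Nr3c1 itself (Entrez gene 14815, chromosome 18, 39410545 to 39487245, minus strand in mm10) was one of the steadiest members. It stood at 179, 161, 168 and 164 CPM in sham replicates 1 to 4, at 203, 191, 172 and 181 CPM in burn replicates 5 to 8, and at 135, 155, 166 and 153 CPM in antibody replicates 9 to 12. All 4 antibody libraries lay below all 4 burn libraries, as 16% of tested genes did, and the sham values overlapped with both. The means were 168 ± 7.88, 187 ± 13.2 and 152 ± 12.7 CPM (SD, n = 4). The receptor transcript was lower with the antibody than after burn, at -0.30 ± 0.08, adjusted p = 0.00640. Burn differed from sham by 0.15 ± 0.08 (adjusted p = 0.190), with a 95% interval of -0.01 to 0.31. The antibody group differed from sham by -0.15 ± 0.08 (adjusted p = 0.252).

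Sgk1, a serum- and glucocorticoid-induced kinase of ion transport and survival signalling (Entrez gene 20393, chromosome 10, 21993890 to 21999902, plus strand), followed the same order of groups. Its levels were 46.6, 44.2, 47.8 and 45.0 CPM in sham, 50.9, 52.5, 48.6 and 48.4 CPM after burn and 32.97, 37.1, 46.7 and 41.9 CPM with the antibody. The burn libraries lay above all sham libraries and above all antibody libraries, and replicate 9 was the lowest. Sgk1 was lower with the antibody than after burn, at -0.34 ± 0.09, adjusted p = 0.00920. Burn against sham stood at 0.13 ± 0.09 (adjusted p = 0.383) in spite of the groups not overlapping, and 12.9% of all tested genes lay above sham in every burn library. The antibody group against sham stood at -0.21 ± 0.09 (adjusted p = 0.156, and 0.0376 without replicate 11).

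Both calls were lost under 3 alternatives. Without replicates 9 and 12, which held the most brain transcripts, Nr3c1 stood at -0.21 (adjusted p = 0.109) and Sgk1 at -0.25 (adjusted p = 0.0988). With the brain level as a covariate the values were -0.20 (adjusted p = 0.177) and -0.27 (adjusted p = 0.123), and with library size as the only scaling -0.11 (adjusted p = 0.151) and -0.16 (adjusted p = 0.148). Both genes kept their call when any 1 library was left out. Neutrophil genes moved in the same direction: all 11 listed neutrophil markers were lower with the antibody than after burn, their median at -1.45, and their summed level ranged over 40028 to 51555 CPM in sham, 74321 to 88975 after burn and 25560.4 to 33070.0 with the antibody. All 8 red cell precursor markers and all 8 B lineage markers were higher with the antibody than after burn, with medians of 0.80 and 0.98. The part of these cell types in the Nr3c1 and Sgk1 values was not tested, and in whole marrow fewer cells of a type and less RNA per cell cannot be told apart.

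**Figure D2:**
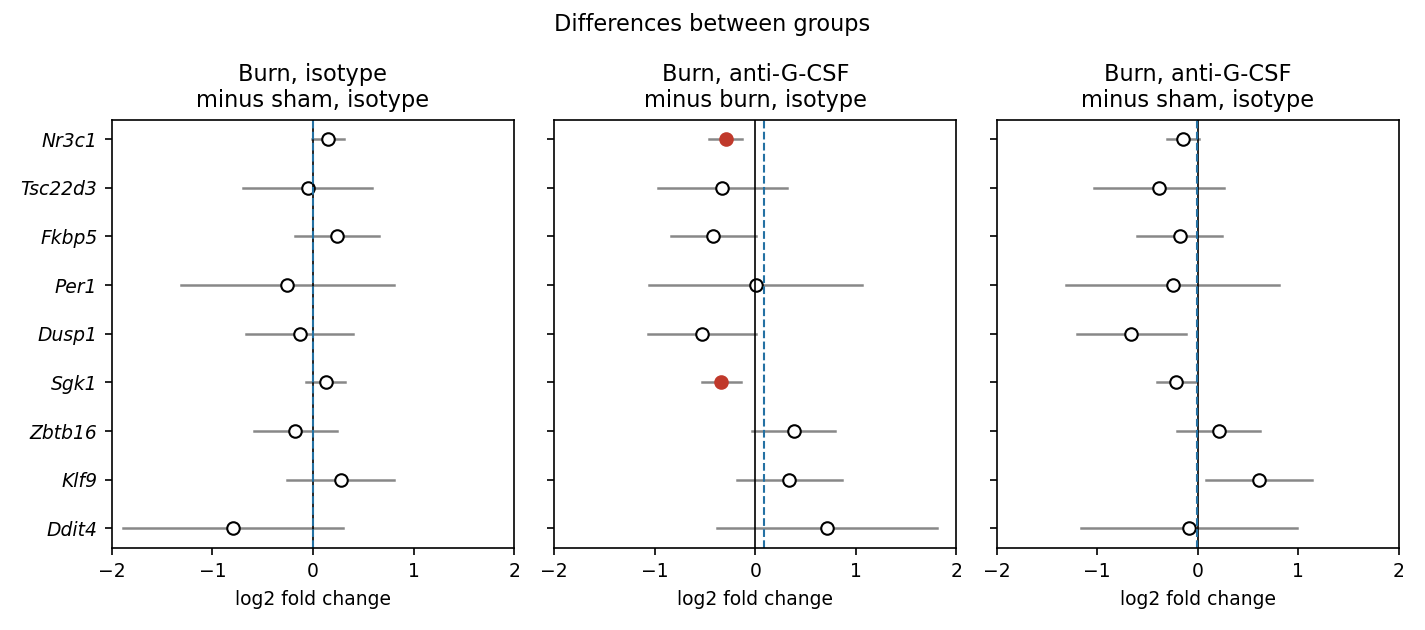
Log2 fold changes (x axis) of the 9 genes in the 3 comparisons, with 95% intervals from the edgeR fit as grey lines. Filled points passed an adjusted p of 0.05, which only Nr3c1 and Sgk1 did, in the comparison of the antibody group with burn, and the dashed line is the median of all tested genes.

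Fkbp5, a co-chaperone that lowers the affinity of the receptor for hormone and is induced by it in a feedback loop (Entrez gene 14229, chromosome 17, 28398753 to 28486149, minus strand), stood at 72.1, 73.0, 78.1 and 111 CPM in sham. The values after burn were 114, 105, 81.8 and 93.7 CPM, and with the antibody 60.8, 56.5, 102 and 76.1 CPM. The groups overlapped, with replicate 4 well above the other sham libraries and replicate 11 well above the other antibody libraries. Burn against sham was 0.24 ± 0.19 (adjusted p = 0.450, 95% interval -0.18 to 0.66). The antibody group against burn was -0.42 ± 0.19 (adjusted p = 0.114, 95% interval -0.84 to 0.00), and against sham -0.18 ± 0.19 (adjusted p = 0.641). Without replicate 11 the difference from burn was -0.60 (adjusted p = 0.0129), past the threshold, as it was under DESeq2, at -0.45 (adjusted p = 0.0319).

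Tsc22d3, Per1, Dusp1 and Ddit4 differed more between libraries of one group than between groups. Tsc22d3 encodes GILZ, a leucine zipper protein that holds back NF-kB and AP-1 (Entrez gene 14605, chromosome X, 140539529 to 140543187, minus strand). It stood at 95.5, 186, 159.5 and 238 CPM in sham, 133, 142, 179.8 and 199 CPM after burn and 85.2, 108, 207 and 121 CPM with the antibody. The highest sham library held 2.50 times the lowest and the highest antibody library 2.43 times the lowest, and the groups overlapped. Its mean difference between burn and sham was -0.05 ± 0.29 (adjusted p = 0.927, 95% interval -0.70 to 0.59), and between the antibody group and burn -0.33 ± 0.30 (adjusted p = 0.417). The antibody group differed from sham by -0.38 ± 0.30 (adjusted p = 0.480, 95% interval -1.03 to 0.26).

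Per1, a repressor of the circadian clock that corticosterone also induces directly (Entrez gene 18626, chromosome 11, 69098956 to 69109957, plus strand), had the widest spread in sham and burn. Its values were 22.2, 31.8, 50.4 and 90.5 CPM in sham, 21.3, 28.8, 59.2 and 53.9 CPM after burn and 28.2, 31.4, 61.3 and 42.9 CPM with the antibody. Replicate 4 held 4.08 times as much as replicate 1, and replicate 7 held 2.78 times as much as replicate 5. The interval for burn against sham ran over -1.31 to 0.80 around -0.25 ± 0.48 (adjusted p = 0.774), so neither a 1.5-fold rise nor a 1.5-fold fall was outside it. For the antibody group against burn the value was 0.01 ± 0.48 (adjusted p = 0.995, 95% interval -1.05 to 1.06), and against sham it was -0.25 ± 0.48 (adjusted p = 0.811).

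Ddit4 encodes REDD1, an inhibitor of mTORC1 induced by glucocorticoids and by hypoxia (Entrez gene 74747, chromosome 10, 59949675 to 59951770, minus strand). It stood at 16.7, 28.8, 30.7 and 60.8 CPM in sham, 10.4, 20.5, 22.2 and 25.7 CPM after burn and 16.9, 22.0, 63.9 and 26.1 CPM with the antibody. Replicates 4 and 11 stood apart at 60.8 and 63.9 CPM, with no other library above 30.7 CPM. Burn against sham was -0.79 ± 0.49, the largest difference of any member in size in that comparison, with an adjusted p = 0.316 and a 95% interval of -1.89 to 0.30. The antibody group against burn was 0.71 ± 0.49 (adjusted p = 0.293, 95% interval -0.38 to 1.80), and against sham -0.08 ± 0.49 (adjusted p = 0.948).

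Dusp1, a phosphatase that switches off the p38 and JNK kinases (Entrez gene 19252, chromosome 17, 26505591 to 26508472, minus strand), was lowest with the antibody. Its levels were 36.9, 47.3, 51.1 and 70.5 CPM in sham, 32.4, 45.7, 56.4 and 53.4 CPM after burn and 29.8, 25.6, 48.1 and 26.9 CPM with the antibody. Replicates 9, 10 and 12 lay below every sham and burn library, and replicate 11 lay among them. The antibody group differed from sham by -0.66 ± 0.25 (adjusted p = 0.111) and from burn by -0.53 ± 0.25 (adjusted p = 0.118). Without replicate 11 these became -0.90 (adjusted p = 0.0192) and -0.76 (adjusted p = 0.0179), both past the threshold. Burn differed from sham by -0.13 ± 0.24 (adjusted p = 0.771, 95% interval -0.66 to 0.40). Of 10 other MAP kinase phosphatases 3 were higher with the antibody than after burn and none lower, and Dusp2, a phosphatase of activated leukocytes, was lower after burn at -0.73 ± 0.12, adjusted p = 3.17e-04.

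The 4 genes rose and fell together from library to library, and Klf9 and Zbtb16 went with them in most library pairs. Over the 18 pairs of libraries within groups, the library with more Tsc22d3 also had more Ddit4 in 17, more Per1 in 16 and more Dusp1 in 14. Per1 and Ddit4 were in the same order in 17 of 18 pairs, and Per1 and Dusp1 in 16. Klf9 was ordered as Per1 and Dusp1 in 15 pairs each, as Ddit4 in 14 and as Tsc22d3 in 13. Zbtb16 was ordered as Ddit4 in 15 and as Tsc22d3, Per1 and Dusp1 in 14 each. Of all tested genes 0.262% matched the order of Tsc22d3 in at least 16 pairs, and 0.0458% matched that of Ddit4 in at least 17. Replicate 4 was the highest sham library for 7 of 9 members, and replicate 11 the highest antibody library for 7 of 9. The share of all genes highest there was not worked out. Summed eosinophil and basophil markers were also highest of their groups in replicates 4 and 11, at 5782 and 3045 CPM. So were T and NK cell markers, at 182 and 157 CPM. The eosinophil and basophil sum matched Ddit4 in 14 pairs, Tsc22d3 and Per1 in 13 each and Dusp1 in 11. Sums of neutrophil, B lineage and red cell precursor markers matched the 4 genes in 5 to 10. The part of these cells was not tested. Fkbp5 followed them less, matching Tsc22d3, Per1 and Dusp1 in 11 pairs each and Ddit4 in 12. Nr3c1 did not take part, with 7 of 18 pairs ordered as in Tsc22d3, and Sgk1 matched Tsc22d3 in 9. Nr3c1 and Sgk1 matched each other in 14. These counts describe libraries that share depth and composition, and no test was run on them.

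**Figure D3:**
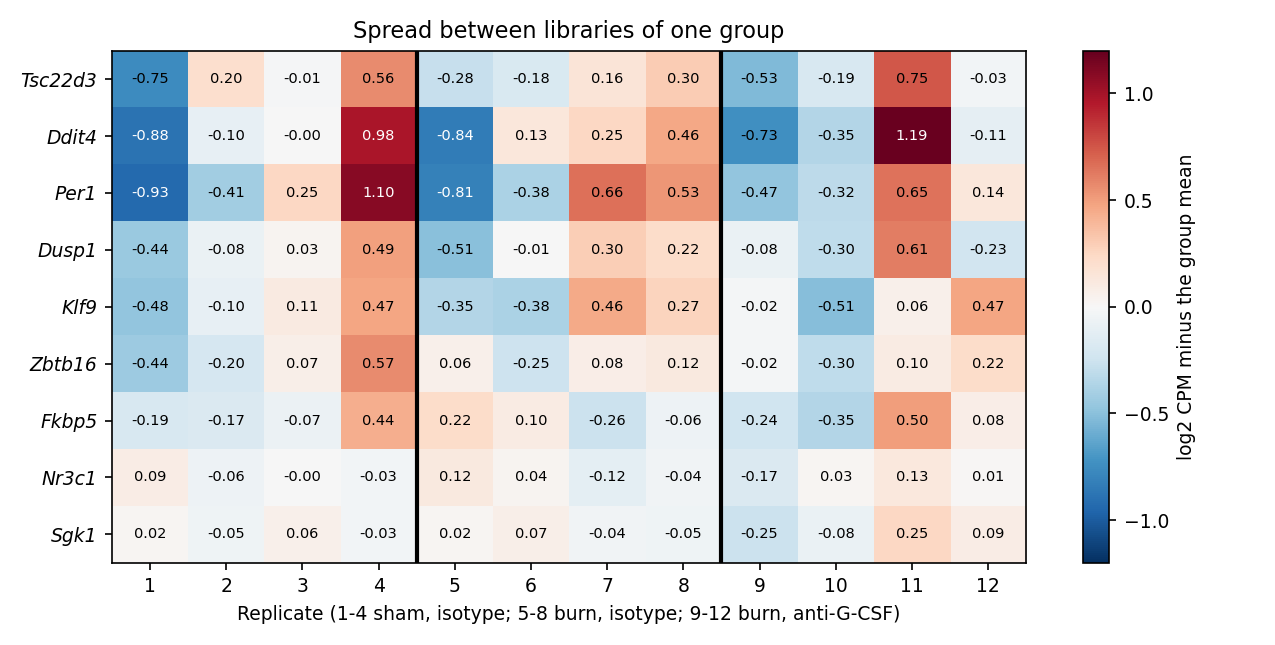
Log2 CPM of each gene in each library minus the mean of its group, with groups divided by black lines. Tsc22d3, Ddit4, Per1, Dusp1 and Klf9 lie below their group means in replicates 1, 5, 9 and 10. They lie above them in replicates 4, 7, 8 and 11, with Klf9 near its mean in replicates 9 and 11 (-0.02 and 0.06). Nr3c1 stays within a band from -0.17 to 0.13 and Sgk1 within one from -0.25 to 0.25.

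Genes other than the members with the most similar pattern were ranked by the root mean square difference of log2 CPM, each gene centred on its own mean over 12 libraries. For Nr3c1 these were Tbc1d15, Rspry1 and Gak, at 0.0383 to 0.0454 against a spread of 0.149 of Nr3c1 around its own mean. For Sgk1 they were Spn, Herc4 and Esrra, at 0.0630 to 0.0771 against 0.184. Fkbp5 was nearest to Pctp, Ston2 and Mfsd10, at 0.161 to 0.168 against 0.321. For the variable targets the nearest genes lay farther off. The nearest to Per1 were Pik3ip1, Ikzf2 and Sik1, at 0.423 to 0.457 against 0.621, and the nearest to Ddit4 were Pik3ip1, Ikzf2 and Il5ra, at 0.430 to 0.442 against 0.705. Pik3ip1, an inhibitor of PI3 kinase that also stood in the list of other glucocorticoid targets, led for both. Tsc22d3 was nearest to Zfp36l2, Dxo and Zbtb39, at 0.283 to 0.290 against 0.451, and Dusp1 to Abhd15, Zbtb39 and Zfp36l2, at 0.258 to 0.278 against 0.443, with Zbtb39 and Zfp36l2 in both sets. Zbtb16 was nearest to Eml5, Paqr8 and Fam175a, at 0.126 to 0.161 against 0.298, and Klf9 to Serping1, Habp4 and Nlgn2, at 0.206 to 0.208 against 0.431.

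Klf9 and Zbtb16, both zinc finger transcription factors, had their highest means in the antibody group, in which brain transcripts also had theirs, and neither passed a test. Klf9 encodes a Krüppel-like factor induced by glucocorticoids and thyroid hormone (Entrez gene 16601, chromosome 19, 23141226 to 23166911, plus strand). It stood at 9.79, 12.7, 14.7 and 18.9 CPM in sham, 12.8, 12.6, 22.5 and 19.7 CPM after burn and 20.5, 14.6, 21.7 and 28.8 CPM with the antibody, with replicate 12 the highest of all. The groups overlapped, burn stood at 0.27 ± 0.25 against sham (adjusted p = 0.500) and the antibody group at 0.34 ± 0.24 against burn (adjusted p = 0.301), while the antibody group differed from sham by 0.61 ± 0.24 (adjusted p = 0.128, 95% interval 0.09 to 1.14). Without replicate 10 this passed, at 0.76 (adjusted p = 0.0485). Without replicates 9 and 12 it was 0.37 (adjusted p = 0.695), and with the brain level as a covariate the value was -0.14 (adjusted p = 0.999).

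Zbtb16 encodes PLZF, a zinc finger factor of innate-like lymphocytes and progenitors (Entrez gene 235320, chromosome 9, 48654297 to 48835945, minus strand), and was the lowest member. Its levels were 6.33, 7.46, 9.03 and 12.7 CPM in sham, 8.13, 6.57, 8.25 and 8.46 CPM after burn and 9.99, 8.25, 10.9 and 11.8 CPM with the antibody. Replicate 4 was the highest library and the groups overlapped. The antibody group against burn was 0.38 ± 0.20 (adjusted p = 0.139), and 0.56 (adjusted p = 0.0365) with library size as the only scaling. Burn against sham was -0.18 ± 0.20 (adjusted p = 0.601) and the antibody group against sham 0.21 ± 0.20 (adjusted p = 0.571). Of 10 genes of innate-like lymphocytes 2 fell and 1 rose after burn, and among those that fell the cytokine receptor Il7r stood at -1.08 ± 0.23, adjusted p = 0.00538. All 8 B lineage markers and 5 of 8 T and NK cell markers also fell after burn, with list medians of -1.07 and -0.94. The part of these cells in the Il7r value was not tested.

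Within groups Klf9 was ordered as the brain level in 15 of 18 library pairs and as the heart level in 16, and Zbtb16 in 14 and 15. Of all tested genes 5.06% matched Klf9 and 3.59% matched Zbtb16 in at least 15 pairs. No share was worked out for 14 pairs, so the counts of 14 here have no background beside them. Per1 and Dusp1 were matched by Klf9 about as often, in 15 pairs each. Zbtb16 matched Ddit4 in 15 and Tsc22d3, Per1 and Dusp1 in 14 each, and Klf9 and Zbtb16 matched each other in 17. Without replicates 9 and 12 Zbtb16 stood at 0.11 between the antibody group and sham (adjusted p = 0.918) and at 0.30 between the antibody group and burn (adjusted p = 0.442). With the brain level as a covariate Zbtb16 stood at -0.13 between the antibody group and sham (adjusted p = 0.999). Nr3c1 matched the order of the brain level in 5 pairs and that of the neutrophil markers in 14.

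**Figure D4:**
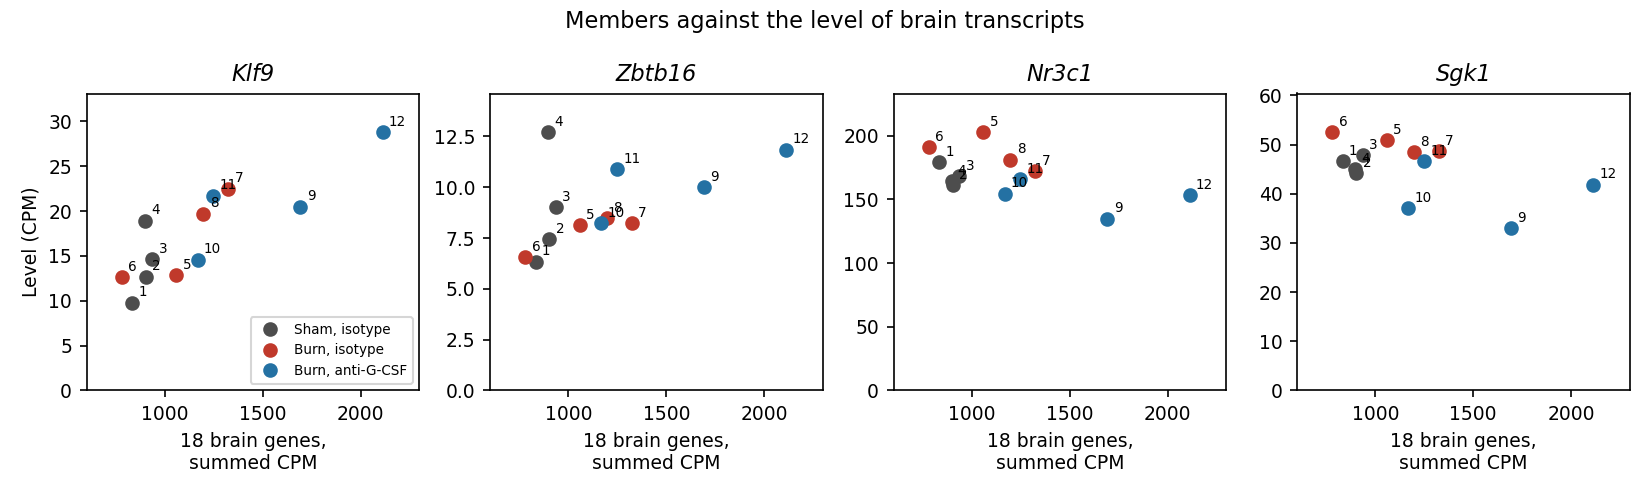
CPM of Klf9, Zbtb16, Nr3c1 and Sgk1 (y axis, from 0) against the summed CPM of 18 brain genes (x axis) in each library, numbered by replicate and coloured by group. Klf9 is highest in replicate 12, which holds the most brain transcripts, while Nr3c1 and Sgk1 are lowest in replicate 9, which holds the second most.

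Of 5 tested genes that supply the hormone or bind it beside the receptor, 2 rose after burn, and 1 was higher and 2 were lower with the antibody than after burn. Hsd11b1 encodes the enzyme that regenerates active corticosterone from its inert keto form, and H6pd the enzyme that provides the NADPH it needs. Hsd11b1 stood at 64.1, 55.9, 51.3 and 47.3 CPM in sham, 129.6, 114, 99.5 and 104 CPM after burn and 39.5, 39.4, 54.8 and 42.6 CPM with the antibody. The burn libraries lay above all others. Hsd11b1 rose after burn by 1.03 ± 0.12 (adjusted p = 2.07e-05) and was lower with the antibody than after burn at -1.34 ± 0.12, adjusted p = 2.75e-07. H6pd followed, at 54.4, 50.5, 55.1 and 55.4 CPM in sham, 93.0, 77.0, 72.0 and 71.0 CPM after burn and 41.9, 47.7, 52.0 and 43.3 CPM with the antibody, again with the burn libraries on top. Its differences were 0.54 ± 0.09 (adjusted p = 4.13e-04) after burn and -0.76 ± 0.09, adjusted p = 6.38e-06 for the antibody against burn. The neutrophil markers moved the same way in both comparisons, all 11 higher after burn and all 11 lower with the antibody, and their part in these 2 genes was not tested. Neither gene passed between the antibody group and sham (adjusted p = 0.100 and 0.140). Hsd11b2, the enzyme that inactivates corticosterone, and Serpina6, its carrier in plasma, held at most 18 and 10 counts in any library and were not tested. The mineralocorticoid receptor Nr3c2, which also binds corticosterone, was higher with the antibody than after burn at 0.98 ± 0.35, adjusted p = 0.0425. Its highest levels were 13.3 CPM in replicate 9 and 12.3 CPM in replicate 12, against 2.62 to 5.64 in the other 10 libraries, and without those 2 libraries it stood at 0.17 (adjusted p = 0.772).

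**Figure D5:**
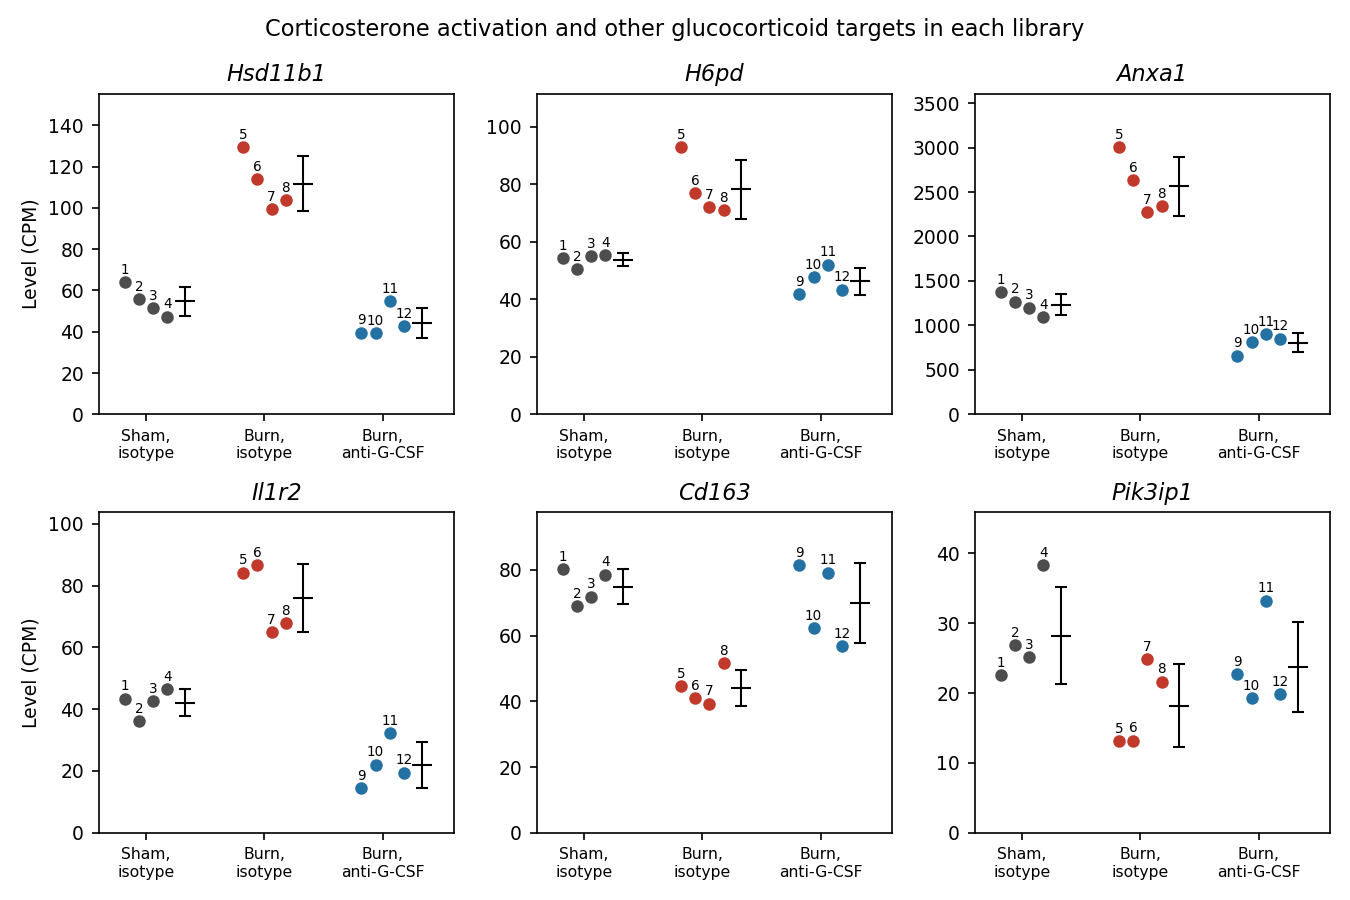
CPM (y axis, from 0) of 6 genes in each library, numbered by replicate, with mean and SD (n = 4). Hsd11b1, H6pd, Anxa1 and Il1r2 are highest in the 4 burn libraries, Cd163 is lowest there, and Pik3ip1 is highest in replicates 4 and 11.

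Of 13 chaperones of the receptor none passed in any of the 3 comparisons with edgeR, and the list medians were 0.00, 0.10 and 0.07. At an unadjusted p under 0.05, for which no share of all tested genes was worked out, edgeR gave 1, 3 and 3 of 13. DESeq2 called 0, 0 and 1, limma-voom 0, 1 and 0, and limma-voom with sample weights 1, 2 and 1. All are in the order burn against sham, antibody against burn and antibody against sham. Of 16 cofactors 2 rose and 3 fell after burn, where 11.1% and 9.92% of all tested genes did. With the antibody against burn 4 were higher and 5 lower, where 17.7% and 16.9% of all tested genes were. The coactivators Ncoa1 and Ncoa6 rose after burn, at 0.32 ± 0.08, adjusted p = 0.00693, and 0.24 ± 0.08, adjusted p = 0.0347. They were lower with the antibody than after burn, at -0.26 ± 0.08, adjusted p = 0.0167, and -0.44 ± 0.08, adjusted p = 3.58e-04. The Ncoa6 rise held in 16 of 25 alternatives, being 0.14 (adjusted p = 0.205) with library size alone, and was lost without any 1 of replicates 1, 2, 4, 5, 6 and 7 (adjusted p from 0.0520 to 0.128). The lower Ncoa1 level held in 19 of 25, being -0.08 (adjusted p = 0.424) with library size alone, -0.19 (adjusted p = 0.0850) without replicate 9 and -0.23 (adjusted p = 0.0517) without replicate 11. The chromatin remodeller Smarca4 and the arginine methyltransferase Carm1 moved the other way, falling after burn at -0.53 ± 0.10, adjusted p = 9.74e-04, and -0.38 ± 0.08, adjusted p = 0.00289.

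Of 27 other genes known as glucocorticoid targets in one tissue or another, 4 rose and 7 fell after burn, 7 were higher and 9 lower with the antibody than after burn, and 1 was higher and 6 lower with the antibody than in sham. The list median was -0.03, 0.16 and -0.10 in the same order. Of all tested genes 11.1% rose and 9.92% fell after burn, and 17.7% were higher and 16.9% lower with the antibody than after burn. Between the antibody group and sham 7.09% were higher and 3.91% lower. Anxa1, Il1r2, Bcl6 and Cebpd were the 4 that rose after burn, a comparison in which all 11 neutrophil markers rose. Anxa1, an anti-inflammatory annexin, went from 1234 ± 119 CPM in sham to 2564 ± 334 CPM after burn and 806 ± 104 CPM with the antibody (SD, n = 4). Anxa1 changed by 1.05 ± 0.11 after burn (adjusted p = 1.12e-05) and by -1.67 ± 0.12 with the antibody against burn (adjusted p = 2.53e-08). Il1r2, a decoy receptor for interleukin 1, rose by 0.85 ± 0.19 after burn (adjusted p = 0.00511), and the repressor Bcl6 by 0.59 ± 0.09 (adjusted p = 2.31e-04). Both were lower with the antibody than after burn, at -1.78 ± 0.19, adjusted p = 1.17e-05, and -0.84 ± 0.09, adjusted p = 2.40e-06. Cebpd, a myeloid transcription factor, did the same, at 0.67 ± 0.16, adjusted p = 0.00650, and -1.44 ± 0.16, adjusted p = 1.00e-05. Cd163 and Mertk were among those that fell. Cd163, the receptor for hemoglobin bound to haptoglobin, fell from 74.9 ± 5.30 to 44.1 ± 5.51 CPM after burn (-0.76 ± 0.11, adjusted p = 1.59e-04), and Mertk, a receptor for dying cells, changed by -0.63 ± 0.12 (adjusted p = 9.79e-04). Both were higher with the antibody than after burn, at 0.66 ± 0.11, adjusted p = 2.33e-04, and 0.60 ± 0.12, adjusted p = 7.95e-04. Of 8 monocyte and macrophage markers 4 rose and 3 fell after burn, and their summed level was 1598 ± 161 CPM in sham, 2035 ± 316 after burn and 1526 ± 130.0 with the antibody (SD, n = 4). The means of Vcam1, Mrc1 and C1qa went from 296, 117 and 77.6 CPM in sham to 165, 62.7 and 45.1 CPM after burn. Those of Ly6c2 and Ccr2, the largest of the 8 after burn, went from 443 and 292 to 664 and 590 CPM. The part of cell composition in the list of other targets was not tested.

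Some of the 27 genes of the list varied from library to library as the variable members did, and those named here had high counts of matching pairs. Pik3ip1 was ordered as Dusp1 in 17 of 18 library pairs and as Tsc22d3 and Per1 in 15 each. Txnip, an inhibitor of thioredoxin, and Nfkbia, the inhibitor of NF-kB, were ordered as Tsc22d3 in 15 each. Of all tested genes 1.09% matched Tsc22d3 and 1.51% matched Per1 in at least 15 pairs. In at least 17 pairs 0.0393% matched Dusp1 and 0.373% matched Klf9. Other genes of the list did not follow: Anxa1 and Cebpd matched Tsc22d3 in 8 pairs each and Dusp1 in 4 each, and Cd163 matched Tsc22d3 in 7. Pdk4, a kinase that spares glucose, was ordered as Klf9 in 17 pairs and stood at 1.24 ± 0.34 between the antibody group and sham (adjusted p = 0.0294). It was 0.65 (adjusted p = 0.512) without replicates 9 and 12, and -0.18 (adjusted p = 0.999) with the brain level as a covariate.

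Clock genes were followed beside Per1, as the hour of harvest is not given in the sources used here. Of 18 clock genes 1 rose and 2 fell after burn, where 11.1% and 9.92% of all tested genes did. With the antibody against burn 7 were higher and 2 lower, where 17.7% and 16.9% of all tested genes were. Per2, the partner of Per1 and also a glucocorticoid target, matched the order of Tsc22d3 in 16 of 18 pairs and that of Per1 in 14. Its mean level was 19.1 ± 1.77 CPM in sham, 20.4 ± 1.80 CPM after burn and 16.2 ± 1.28 CPM with the antibody (SD, n = 4), and it was lower with the antibody than after burn at -0.33 ± 0.11, adjusted p = 0.0243. The Per2 call held in 15 of 25 alternatives. It stood at -0.16 (adjusted p = 0.275) with library size alone and at -0.25 (adjusted p = 0.226) without replicates 9 and 12, and the call was also lost without any 1 of replicates 7, 8, 9, 11 and 12 (adjusted p = 0.0546, 0.0674, 0.0823, 0.0507 and 0.0609). The clock output gene Dbp matched the order of Per1 in 12 pairs, the clock repressor Nr1d1 in 9 and the activator Arntl in 12. Nfil3, a clock repressor that is also a myeloid factor, rose after burn at 0.86 ± 0.11, adjusted p = 2.95e-05, and was lower with the antibody than after burn at -1.28 ± 0.11, adjusted p = 1.18e-07. Arntl fell after burn at -0.79 ± 0.14, adjusted p = 8.44e-04, and was higher with the antibody than after burn at 0.76 ± 0.14, adjusted p = 6.42e-04.

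Relatives of the members were followed as well. Among 3 other genes of the TSC22 family, Tsc22d1 fell after burn at -0.56 ± 0.10, adjusted p = 7.43e-04, and was higher with the antibody than after burn at 0.61 ± 0.10, adjusted p = 2.07e-04. Tsc22d4 was lower with the antibody than after burn at -0.48 ± 0.07, adjusted p = 5.39e-05. Of 12 other FK506 binding immunophilins 1 rose after burn, Fkbp15, at 0.37 ± 0.09, adjusted p = 0.00761, and 2 were higher and 2 lower with the antibody than after burn. Of 4 tested genes of the SGK and NDRG families beside Sgk1, 2 rose and none fell after burn, 1 was higher and 2 lower with the antibody than after burn, and 1 was higher with the antibody than in sham. Ndrg1, a substrate of Sgk1, rose after burn at 0.50 ± 0.10, adjusted p = 0.00107, and was lower with the antibody than after burn at -0.70 ± 0.10, adjusted p = 2.30e-05. Ndrg2, its relative, went the other way between those groups, from 39.2 ± 13.7 to 69.1 ± 23.0 CPM (SD, n = 4), at 0.82 ± 0.26, adjusted p = 0.0327. Its highest libraries were replicates 9 and 12, at 75.0 and 99.1 CPM, and without them it stood at 0.39 (adjusted p = 0.377). The call was also lost without replicate 5, 9 or 12 alone (adjusted p = 0.110, 0.0916 and 0.0950). Of 7 genes beside Ddit4 that restrain mTORC1, 1 fell and 1 rose after burn. The stress-induced Sesn1 stood at 82.6, 91.8, 95.7 and 89.6 CPM in sham, 52.3, 56.2, 62.5 and 60.2 CPM after burn and 104, 97.2, 92.6 and 78.8 CPM with the antibody. The burn libraries lay below all others, at -0.64 ± 0.09, adjusted p = 7.02e-05 against sham, and the antibody group was higher than burn at 0.69 ± 0.09, adjusted p = 1.00e-05.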

How the data were processed

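The authors deposited 1 table of whole-number counts per gene, not normalised, with 1 column per library of whole marrow RNA. Per the labels' protocols, the libraries were stranded and made from poly(A) RNA. The submitters' processing notes name TopHat2 and build mm10. For the read counting, the program, strand setting and annotation were not given in the sources used here. No member overlapped another gene of the table except Klf9, which spans the microRNA gene Mir1192. Starts were raised by 1, since of 14702 genes with the same end in RefSeq 11378 started 1 lower in the table.

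Tests across genes were made in R 4.3.3 with edgeR 4.0.16 (filterByExpr by group, TMM, robust quasi-likelihood fit to all 12 libraries, 2-sided, Benjamini-Hochberg). SEs were derived from the log2 fold change and the root of its F value. The fit was also run on simulated data with known changes, and the outcome is not given here. Those data were drawn from the fit's own estimates of spread, without shifts in brain transcripts or cell types, so they cannot speak to such shifts. Exon length was taken from GENCODE M21 within each gene's deposited span. Alternatives used DESeq2 1.42.0, limma 3.58.1, other scalings, filters, samples and thresholds, and the brain genes' average log2 CPM as a covariate. The members and lists were chosen with earlier results of these data known. Named genes are the 9 members, for each list and each comparison up to 4 called genes with the smallest p, and 3 similar genes per member among those whose average log2 CPM was 3 or more. Per2, Dbp, Nr1d1, Txnip, Nfkbia, Pdk4, Hsd11b2, Serpina6, Vcam1, Mrc1, C1qa, Ly6c2 and Ccr2 are named beyond that rule, after their values were seen.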

Additional observations from a re-analysis of the deposited data

Results flagged for a closer look

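Fkbp5 in sham marrow was set apart by 1 library. Replicate 4 stood at 111 CPM and the other 3 at 72.1, 73.0 and 78.1 CPM. Its gap to the nearest library was 0.847 of the range of the group, above Dixon's 95% critical value of 0.829 for 4 samples. Of 27 groups of 4 libraries tried (9 genes in 3 groups) this was the only 1 past that value, and chance sets apart about 1 in 20.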

How the results depend on the processing

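Between burn and sham 0 members were called under each of the 25 alternatives. With the antibody against burn, 2 members were lower, and 0 with library size alone, with the brain level as a covariate or without replicates 9 and 12. With library size alone 1 member, Zbtb16, was higher, and with 1 library left out the number lower was 2 to 4. Between the antibody group and sham, leaving out 1 library gave 0 to 1 higher and 0 to 2 lower.

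Of all tested genes 1691 were higher and 1516 lower after burn, 2703 and 2582 with the antibody against burn, and 1083 and 598 with the antibody against sham. Library size alone gave 1276 and 2846, 5762 and 1673, and 1294 and 376, and moved the median of all genes to -0.10, 0.26 and 0.076. Upper quartile scaling put 63.2% of the calls between the antibody group and burn on the higher side. An adjusted p of 0.01 left 1127 and 841, 1208 higher in the second comparison, and 50 and 92 in the third. For the antibody against burn, 1602 were higher with only the groups compared, 1280 without replicates 9 and 12, and 1639 to 3045 with 1 library left out, the fewest without replicate 5. With the brain level as a covariate 1332 were higher and 1570 lower. Against sham, the covariate gave 12 and 2, leaving out replicates 9 and 12 gave 18 and 17, limma-voom 713 higher, DESeq2 996 lower, and leaving out the 20 most abundant genes 1011 lower. With 1 library left out these were 148 to 1414 and 177 to 857, and leaving out replicate 1, 2, 4, 9 or 12 left 148, 214, 295, 172, 220 higher and 238, 229, 253, 177, 276 lower, in that order, and replicate 3 638 higher.

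Over the 11 pathway lists 15 genes rose and 17 fell after burn (27 fell with library size alone and 11 at an adjusted p of 0.01). With the antibody against burn 28 were higher and 25 lower, against 47 and 16 with library size alone, 18 and 15 without replicates 9 and 12, 18 and 16 at 0.01, 13 lower with the covariate, and 18 to 34 and 16 to 25 with 1 library left out, the fewest higher without replicate 5 and lower without replicate 9. Against sham 8 were higher and 8 lower, 0 and 0 with the covariate, 1 and 0 without replicates 9 and 12, 0 and 2 at 0.01, and 1 to 12 and 2 to 15 with 1 library left out, the fewest without replicate 1. Of the 27 most similar genes 18 stayed when genes down to an average log2 CPM of 1 were let in and 27 with DESeq2 size factors.

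Several differences changed sign, those of Nr3c2 and Pdk4 among them, which had passed. Tsc22d3 between burn and sham was 0.00248 with limma-voom and -0.25 to 0.14 with 1 library left out. Per1 between the antibody group and burn was -0.024 with DESeq2 size factors, -0.027 without the 20 most abundant genes, -0.023 with DESeq2, -0.10 with weighted limma-voom, -0.026 with only the groups compared and -0.31 with the covariate. With 1 library left out Per1 was -0.50 to 0.22, -0.24 to 0.24 and -0.50 to 0.24 in the 3 comparisons, Dusp1 -0.26 to 0.047 and Zbtb16 -0.31 to 0.036 between burn and sham, and Ddit4 -0.65 to 0.35 between the antibody group and sham. Ddit4 there was 0.33 without replicates 9 and 12 and 0.12 with the covariate. The covariate also gave 0.018 for Fkbp5, -0.13 for Zbtb16, -0.14 for Klf9 and -0.18 for Pdk4 against sham, and -0.21 for Klf9, -0.021 for Nr3c2 and -0.014 for Nr1d1 against burn. The cause was not tested. No paired analysis was possible because the groups share no library numbers.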
